A study of Mus musculus with 6 samples.

Results

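In all, 10 genes of blood vessels were followed through colon tumors of WT mice and of mice without the M3 muscarinic receptor (*Chrm3*-/-). They were 7 endothelial genes and receptors that could be tested (*Pecam1*, *Cdh5*, *Eng*, *Esam*, *Vwf*, *Flt1* and *Tek*), the receptor gene *Kdr*, which could not, and the genes of the secreted ligands *Vegfa* and *Angpt2*. Every probe that the platform annotation assigned to 1 of these 10 symbols was taken, which gave 19 probes of the 45281 on the array. Of these, 13 probes, from 9 genes, were bright enough to be tested. The tumors came from 3 WT and 3 *Chrm3*-/- mice, all male, of the mixed strain 129S6/SvEvTac X CF1: 50%/50%, and 7 months old by the sample labels. All had been given weekly injections of the intestinal carcinogen azoxymethane (AOM), 6 in all at 10 mg/kg. The paper puts the first injection at 6 weeks of age and the end 20 weeks after it, a younger age than the labels give. Total RNA of each tumor sample was hybridized to an Illumina MouseWG-6 v2.2 BeadChip, 1 array per mouse, and the values below are the deposited normalized intensities, on a linear scale, whose units are arbitrary. The receptor is deleted in every cell of the knockout mice, so the design does not separate loss of the receptor in the tumor cells from its loss elsewhere. The sources used here do not say whether an array held 1 tumor or several.

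Growing tumors draw on blood vessels that sprout from those nearby. Vascular endothelial growth factor A, the product of *Vegfa*, is secreted by tumor and stromal cells, is induced by low oxygen, and binds the receptor kinases encoded by *Kdr* (VEGFR2, the main signaling receptor) and *Flt1* (VEGFR1, which binds the ligand tightly and can hold it back from the other). Angiopoietin 2, the product of *Angpt2*, is released by activated endothelial cells and loosens vessels through the receptor Tie2, the product of *Tek*. The proteins of *Pecam1*, *Cdh5* and *Esam* join endothelial cells to each other, that of *Eng* is a coreceptor for TGF-beta family ligands, and that of *Vwf* is a clotting protein stored in endothelial cells. In RNA of a whole tumor, fewer endothelial cells and less RNA per endothelial cell cannot be told apart.

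None of the tested probes of these genes separated the genotypes. At an adjusted p of 0.05 in limma, 0 of the 13 were called, where 0.124% of all 22641 tested probes were, 0.0486% higher and 0.0751% lower in *Chrm3*-/- tumors. None of these 13 had an unadjusted p under 0.05 either, against 4.82% of all tested probes, and the methods' t-test also called 0 of the 13. In none of the 13 did the 3 *Chrm3*-/- values lie clear of the 3 WT values, as they did in 10.7% of all tested probes, 5.2% higher and 5.5% lower. The log2 fold changes, given throughout as *Chrm3*-/- over WT on log2(intensity + 50), ran from -0.33 (*Eng*) to 0.27 (*Tek*), with a median of 0.02, beside 0.01 over all tested probes. They were above 0 for 8 probes and below 0 for 5, or 38.5% below 0 beside 47.6% of all tested probes. The median within-genotype SD of the members was 0.38 on this log2 scale, beside 0.21 over all tested probes, and the median standard error (SE) of a log2 fold change was 0.28, beside 0.19.

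**Figure D1:**
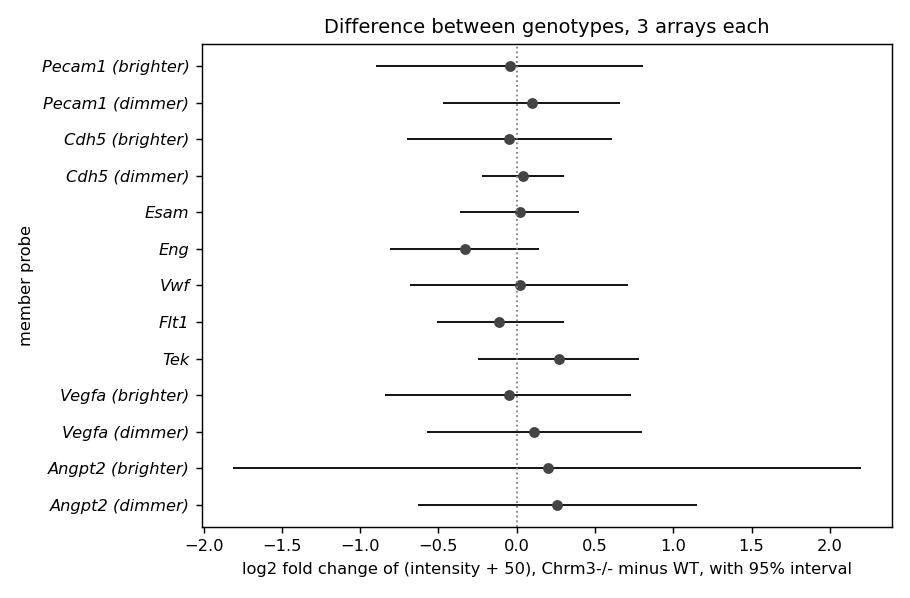
Log2 fold change of *Chrm3*-/- over WT on log2(intensity + 50) for the 13 tested probes (points), with 95% confidence intervals from limma (lines). Every interval spans 0, and the widest is that of the brighter *Angpt2* probe, from -1.81 to 2.2.

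The 6 arrays were alike in their overall distribution, since the normalization gave each the same set of values, and 46.1% of the probes on each array lay under 2, where the values are evenly spaced ranks and no measured signal. The first *Chrm3*-/- array stood apart from the rest. It correlated at 0.916 and 0.946 with the other *Chrm3*-/- arrays over all probes, where the WT arrays correlated at 0.982 to 0.986 with each other, and it scored 88.0 on a first principal component that held 52.8% of the variance, where the others scored -45.6 to -6.2. Without it, 0 of the 13 member probes were called and their median was 0.09; *Flt1* then stood at -0.07, *Esam* at -0.01, *Vwf* at 0.09 and both *Cdh5* probes at 0.09, and the members that it moved further are given with and without it below. The targeted gene, *Chrm3*, read 9.06, 1.80 and 1.93 in WT and 25.1, 32.1 and 21.9 in *Chrm3*-/- tumors (log2 fold change 0.49, adjusted p = 0.365 in limma). The sources used here do not place its probe inside or outside the deletion, so this reading checks no label.

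*Vegfa* (chr17:46016993-46032377 in GRCm38.p6) read 383, 493 and 402 in the WT tumors and 228, 625 and 460 in the *Chrm3*-/- tumors on its brighter probe. The lowest and the highest of the 6 tumors were thus both *Chrm3*-/-, with the WT tumors between them. The means were 426 ± 58.7 in WT and 437 ± 199 in *Chrm3*-/- tumors (mean ± SD, 3 mice per genotype), for a log2 fold change of -0.05 with an SE of 0.33 (95% confidence interval -0.84 to 0.73, adjusted p = 0.994 in limma). A dimmer probe of the same gene gave 62.3, 70.3 and 86.0 in WT and 37.2, 133 and 96.2 in *Chrm3*-/- tumors. It put the same tumors at the bottom and at the top, and its log2 fold change was 0.11 (SE 0.29, adjusted p = 0.991 in limma). The spread within *Chrm3*-/- tumors was 2.74-fold on the brighter and 3.57-fold on the dimmer probe. Without the first *Chrm3*-/- array, the log2 fold changes were 0.31 and 0.42, and neither passed (adjusted p = 0.753 and 0.695 in limma). The third *Vegfa* probe was under 2 on all 6 arrays.

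*Angpt2* (chr8:18690263-18741562) varied most of all members. Its brighter probe read 270, 910 and 250 in WT tumors and 92.7, 1165 and 749 in *Chrm3*-/- tumors, a 3.63-fold range within WT and a 12.56-fold range within *Chrm3*-/- tumors. The first *Chrm3*-/- tumor was the lowest of the 6 and the second *Chrm3*-/- tumor the highest, in the same places as for *Vegfa*. The means were 477 ± 375 in WT and 669 ± 540 in *Chrm3*-/- tumors (mean ± SD, 3 mice per genotype), for a log2 fold change of 0.20 with an SE of 0.84 (adjusted p = 0.991 in limma). With that error, a difference of either sign of over 1 log2 unit lay inside the 95% confidence interval, from -1.81 to 2.2. The dimmer probe read 11.5, 51.1 and 9.12 in WT tumors and 1.66, 85.0 and 40.9 in *Chrm3*-/- tumors, so the first *Chrm3*-/- tumor was at background there. Its log2 fold change was 0.26 (SE 0.38, adjusted p = 0.991 in limma). Without the first *Chrm3*-/- array, the values were 1.13 on the brighter and 0.63 on the dimmer probe (both adjusted p = 0.69 in limma), and without the second *Chrm3*-/- array they were -0.42 and -0.06. Leaving out a single tumor thus turned the sign of the *Angpt2* difference.

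**Figure D2:**
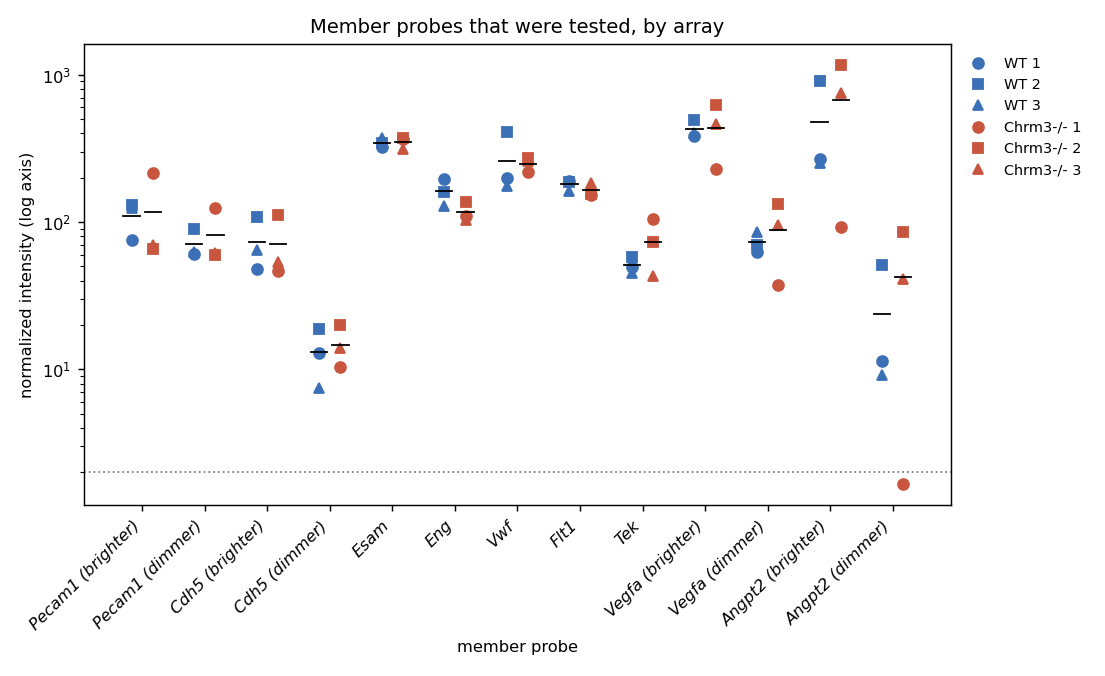
Normalized intensity (log axis, arbitrary units) of the 13 tested probes in each of the 6 arrays, WT in blue and *Chrm3*-/- in red, with a marker shape for each replicate number, black bars at the group means and a dotted line at 2, under which values are not above background. The genotypes overlap for every probe, and *Angpt2* spans the widest range, from 92.7 to 1165 on its brighter probe and from 1.66 to 85.0 on its dimmer one.

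The receptors of *Vegfa* put the tumors in another order. *Flt1* (chr5:147561604-147726438) read 190, 188 and 162 in WT and 153, 156 and 184 in *Chrm3*-/- tumors. Its values stayed close together in all 6 tumors, with means of 180 ± 15.6 and 164 ± 17.2 (mean ± SD, 3 mice per genotype), and the log2 fold change was -0.11 (SE 0.17, 95% confidence interval -0.51 to 0.30, adjusted p = 0.991 in limma). A second *Flt1* probe was under 2 on all 6 arrays. *Kdr* (chr5:75932827-75979072) was at or near background on both of its probes, and neither was tested. The first read 2.55, 1.43 and 1.75 in WT tumors and 8.40, 8.84 and 3.66 in *Chrm3*-/- tumors. The genotypes did not overlap on this probe, but 2 of the 3 WT values were under 2, where the order carries no measurement, so no fold is given. The second *Kdr* probe read 1.78, 1.15 and 2.74 in WT and 1.25, 1.70 and 1.05 in *Chrm3*-/- tumors. No usable reading of the main signaling receptor of *Vegfa* was therefore obtained. The coreceptor *Nrp1*, which presents the ligand to the receptor kinases, read 246, 226 and 213 in WT and 382, 167 and 209 in *Chrm3*-/- tumors on its brightest probe (log2 fold change 0.06, SE 0.28, adjusted p = 0.991 in limma). Its highest value was in the first *Chrm3*-/- tumor, where *Vegfa* was lowest. The dimmest of its 3 probes read 8.53, 7.17 and 8.52 in WT and 10.2, 16.9 and 13.3 in *Chrm3*-/- tumors (log2 fold change 0.13, SE 0.08, adjusted p = 0.991 in limma). The groups did not overlap there, as in the 5.2% of all tested probes that were higher in this way. The coreceptor *Nrp2* and the lymphatic receptor gene *Flt4* were dim. Their log2 fold changes were 0.01 (SE 0.17) for *Nrp2* and -0.10 (SE 0.09) for *Flt4*. The latter was near background: its tested probe read 5.95, 1.70 and 12.6 in WT and 5.49, 1.58 and 1.63 in *Chrm3*-/- tumors. Of these 6 values, 3 were under 2. An untested *Flt4* probe read 2.09, 2.32 and 3.63 in WT and 10.9, 7.21 and 1.94 in *Chrm3*-/- tumors.

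*Tek* (chr4:94739086-94874976), the angiopoietin receptor, read 49.7, 58.0 and 44.8 in WT and 105, 72.9 and 43.2 in *Chrm3*-/- tumors. Of the *Chrm3*-/- tumors, 2 lay above all WT tumors and 1 lay below them. The means were 50.8 ± 6.69 in WT and 73.6 ± 30.8 in *Chrm3*-/- tumors (mean ± SD, 3 mice per genotype), for a log2 fold change of 0.27 with an SE of 0.22 (95% confidence interval -0.25 to 0.78, adjusted p = 0.991 in limma). Most of it came from the first *Chrm3*-/- array, without which the log2 fold change was 0.09. *Tek* was highest in the tumor in which the gene of its ligand *Angpt2* was lowest.

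**Figure D3:**
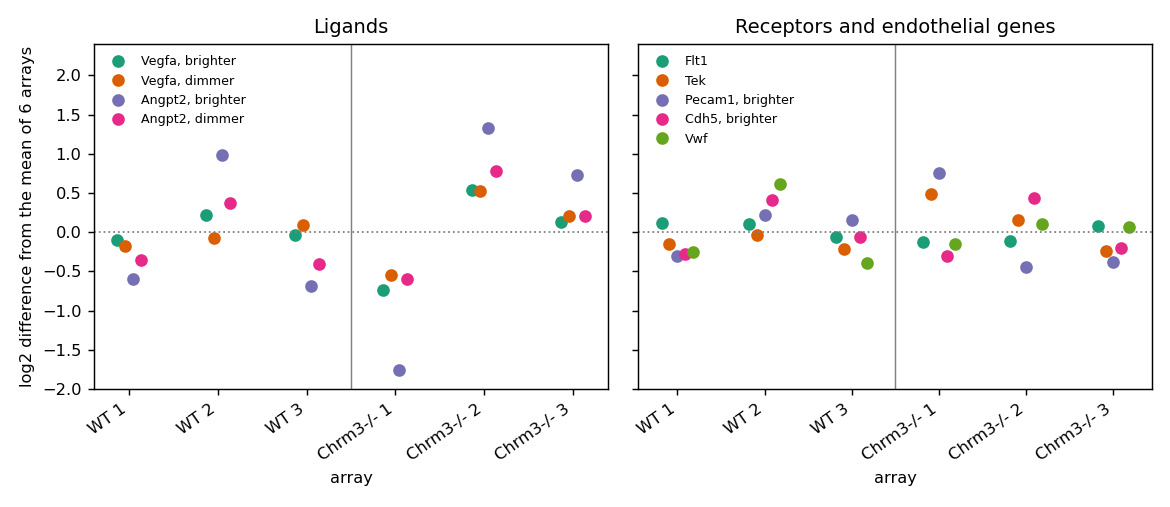
Log2(intensity + 50) of the ligand probes (left) and of receptor and endothelial probes (right) in each array, as the difference from the probe's own mean over the 6 arrays. The ligands are lowest in the first and highest in the second *Chrm3*-/- tumor, and *Pecam1* and *Tek* are highest in the first.

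The junction genes gave no shared order of the tumors. *Pecam1* (chr11:106654213-106715281), which encodes CD31, the usual stain for vessels, read 75.6, 131 and 124 in WT tumors and 214, 65.2 and 69.7 in *Chrm3*-/- tumors on its brighter probe. The first *Chrm3*-/- tumor had the highest value and the other two the lowest, a 3.28-fold range within that genotype. The means were 110 ± 30.4 in WT and 116 ± 84.6 in *Chrm3*-/- tumors (mean ± SD, 3 mice per genotype). The log2 fold change was -0.04 (SE 0.36, 95% confidence interval -0.90 to 0.81, adjusted p = 0.995 in limma), and -0.43 without the first *Chrm3*-/- array (adjusted p = 0.711). The dimmer probe read 60.6, 90.3 and 62.9 in WT and 125, 59.6 and 62.0 in *Chrm3*-/- tumors, for a log2 fold change of 0.10 (SE 0.24), which was -0.12 without the first *Chrm3*-/- array. The dimmest *Pecam1* probe was above 2 on 1 array alone, the first *Chrm3*-/- one, at 5.03.

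*Cdh5* (chr8:104101613-104144504), the gene of VE-cadherin, read 48.2, 109 and 64.2 in WT tumors and 46.8, 112 and 53.6 in *Chrm3*-/- tumors on its brighter probe. The second tumor of each genotype was high and the genotypes covered the same range, with means of 73.7 ± 31.4 and 70.7 ± 35.7 (mean ± SD, 3 mice per genotype), and the log2 fold change was -0.05 (SE 0.28, adjusted p = 0.994 in limma). The dimmer probe read 12.9, 18.8 and 7.52 in WT and 10.4, 19.9 and 14.0 in *Chrm3*-/- tumors, and gave 0.04 (SE 0.11). The first *Chrm3*-/- tumor, the highest for *Pecam1*, was lowest on the brighter *Cdh5* probe, next to the first WT tumor, but not on the dimmer one. *Pecam1* is also expressed by platelets and leukocytes, while *Cdh5* is largely restricted to endothelium. *Esam* (chr9:37528089-37538319) varied least over the 6 tumors among the tested member probes, at 324, 346 and 369 in WT and 368, 374 and 314 in *Chrm3*-/- tumors. The highest and lowest of its 6 values differed 1.19-fold, and its log2 fold change was 0.02 (SE 0.16, 95% confidence interval -0.36 to 0.40, adjusted p = 0.995 in limma).

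*Eng* (chr2:32646595-32682669), the gene of endoglin, had the fold change farthest from 0 and the smallest p of the members. It read 195, 161 and 128 in WT tumors and 109, 137 and 103 in *Chrm3*-/- tumors. The groups overlapped by 1 *Chrm3*-/- value, 137, which lay above the lowest WT value. The means were 161 ± 33.6 in WT and 117 ± 18.1 in *Chrm3*-/- tumors (mean ± SD, 3 mice per genotype), for a log2 fold change of -0.33 with an SE of 0.20 (95% confidence interval -0.81 to 0.14, unadjusted p = 0.138, adjusted p = 0.991 in limma). It was -0.31 without the first *Chrm3*-/- array and stayed between -0.45 and -0.22 with any 1 array left out. *Vwf* (chr6:125552948-125686679) read 199, 405 and 176 in WT tumors and 218, 271 and 258 in *Chrm3*-/- tumors. The second WT tumor held the highest value and the other WT tumors the lowest, which put the *Chrm3*-/- tumors inside the WT range. The means were 260 ± 126 and 249 ± 27.5 (mean ± SD, 3 mice per genotype), for a log2 fold change of 0.02 with an SE of 0.29 (adjusted p = 0.998 in limma). A second *Vwf* probe was under 2 on all 6 arrays.

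The starts of *Vegfa* and *Eng* are shown because the former is the ligand that the receptors are set beside and the latter had the difference farthest from 0. The promoter table of RefSeq (GRCm38.p6) held 5 of the 10 genes, with 6 starts. The 250 bases before each start were searched on both strands for ACGTG, the core of the element through which hypoxia-inducible factors act, and for GGAAGT, a core bound by ETS factors, the family that includes endothelial regulators. No member window holds both motifs, so no matches overlap, and capitals mark a match, which on the other strand reads as the reverse complement. ACGTG is found in 16.6% and GGAAGT in 19.7% of the 32851 windows of the table. The windows are those of *Vegfa*, on the minus strand at chr17:46032378-46032627, and of *Eng*, on the plus strand at chr2:32646345-32646594.
Vegfa: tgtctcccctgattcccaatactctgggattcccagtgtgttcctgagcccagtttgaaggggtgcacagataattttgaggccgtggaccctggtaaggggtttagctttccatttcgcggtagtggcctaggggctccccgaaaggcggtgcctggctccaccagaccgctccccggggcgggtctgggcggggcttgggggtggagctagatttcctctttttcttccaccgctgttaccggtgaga
Eng: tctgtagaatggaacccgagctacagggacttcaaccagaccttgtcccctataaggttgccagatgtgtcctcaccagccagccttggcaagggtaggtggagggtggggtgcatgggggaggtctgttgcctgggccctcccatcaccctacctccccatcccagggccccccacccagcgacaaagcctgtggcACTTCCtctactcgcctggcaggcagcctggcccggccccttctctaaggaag
The *Vegfa* window holds neither motif, and the *Eng* window holds 1 match of GGAAGT on the other strand, 53 bases before the start. Of the windows not printed, *Flt1* and *Kdr* each hold 1 match of GGAAGT on one of the strands, 52 and 217 bases before the listed start. The window of *Tek* holds none of either motif. The windows of *Flt1* and *Kdr* lie inside the gene coordinates given above, and that of *Tek* lies partly inside them, so these listed starts are not the outer ends of the genes. The second *Vegfa* start, which lies inside the gene, has 1 match of ACGTG on the other strand, 211 bases before it. These are matches of letters in a short window, with no measurement of binding in these tumors.

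The endothelial level of each tumor was summarized as the mean log2 difference from each probe's own mean over the 6 arrays, over the 9 tested probes of *Pecam1*, *Cdh5*, *Flt1*, *Tek*, *Eng*, *Vwf* and *Esam*. It was -0.09, 0.20 and -0.10 in the WT tumors and 0.10, 0.02 and -0.14 in the *Chrm3*-/- tumors. The second WT tumor was highest and the third *Chrm3*-/- tumor lowest, and the genotypes overlapped. The means were 0.01 ± 0.17 and -0.01 ± 0.12 (mean ± SD, 3 mice per genotype), which differed by -0.01, or by -0.03 with the median over probes in place of the mean. The value of the first *Chrm3*-/- tumor depended most on *Pecam1*: without its probes, that tumor stood at -0.05. *Tek* was also highest there, and without it the tumor stood at 0.05. With any other 1 of these genes left out, it stood at 0.11 to 0.19. Over 19 other genes of endothelial cells, the level was -0.02, 0.01 and 0.12 in WT and 0.11, 0.03 and -0.24 in *Chrm3*-/- tumors, again with the third *Chrm3*-/- tumor lowest.

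Smooth muscle and epithelial markers covered a wider range between the tumors than the endothelial level did. On the same scale, the 10 smooth muscle markers tested stood at -0.54, -0.15 and -0.39 in WT tumors and at 1.38, -0.50 and 0.19 in *Chrm3*-/- tumors. All 10 had log2 fold changes above 0, where 47.6% of all tested probes were below 0. Their median was 0.76, and none passed (smallest adjusted p = 0.991 in limma). The summed intensity of all 11 with a probe was 10504 to 15232 in WT and 13600 to 44080 in *Chrm3*-/- tumors, with the top value in the first *Chrm3*-/- tumor, the one with the highest *Pecam1* and *Tek* and the lowest *Vegfa* and *Angpt2*. Of these, *Synpo2*, not tested, was under 2 on all 6 arrays. The mean level of the 10 colon epithelium markers was also highest in that tumor, at 0.90. It was lowest in the second *Chrm3*-/- tumor, at -0.70, the one with the highest *Vegfa* and *Angpt2*. The summed intensity of these markers was 34774 to 48259 in WT and 31443 to 67140 in *Chrm3*-/- tumors. This list did not move as one. In the first *Chrm3*-/- tumor, *Car1*, *Cdx2*, *Krt20* and *Slc26a3* had their highest value of the 6, at 17689, 2680, 4821 and 271. *Krt18* had its lowest value there, at 2364. *Epcam* was dim in all 6 tumors, at 8.67, 11.1 and 12.1 in WT and 1.13, 1.06 and 2.03 in *Chrm3*-/- tumors. Its groups did not overlap, as in the 5.5% of all tested probes that were lower in this way. On 2 of the *Chrm3*-/- arrays it was under 2. The mean level of the 8 pericyte markers lay between -0.07 and 0.07 in all 6 tumors, but 3 of these genes had positive and 5 negative log2 fold changes. *Mcam* read lower in all *Chrm3*-/- than in all WT tumors on its brightest probe, as did 5.5% of all tested probes. Its log2 fold change there was -0.50 (adjusted p = 0.991 in limma), and its other probes, with overlapping groups, gave -0.35 and -0.61. *Rgs5* gave 0.37 and was highest in the first *Chrm3*-/- tumor, at 433. The 8 macrophage markers ran from -0.56 to 0.34, lowest in the second and highest in the first *Chrm3*-/- tumor, and the 4 platelet markers from -0.15 to 0.21. The part of these cell types in the values of the members was not tested.

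The mean level of fibroblast markers was lower in all *Chrm3*-/- tumors than in any WT tumor, and that of red blood cell markers in 2 of them. The 8 fibroblast markers tested stood at 0.20, 0.28 and 0.28 in WT and 0.01, -0.42 and -0.34 in *Chrm3*-/- tumors, and the summed intensity of all 9 with a probe was 13588 to 16787 in WT and 10188 to 11975 in *Chrm3*-/- tumors. The list did not move as one: *Fbln1*, *Lum* and *Dpt* had their highest value of the 6 in the first *Chrm3*-/- tumor, at 1873, 351 and 1103, and the first of them had a log2 fold change of 0.20. None of the 8 passed the test (smallest adjusted p = 0.228 in limma), and 5, the collagen genes *Col1a1*, *Col1a2* and *Col3a1* with *Pdgfra* and *Dcn*, had an unadjusted p under 0.05, beside 4.82% of all tested probes. The 2 red blood cell markers tested, a sign of blood left in the sample, stood at 0.12, 0.96 and 0.94 in WT tumors and at -1.35, 0.61 and -1.28 in *Chrm3*-/- tumors. The summed intensity of all 3 with a probe was 4822 to 10072 in WT and 1028 to 8714 in *Chrm3*-/- tumors, and it overlapped between the genotypes.

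**Figure D4:**
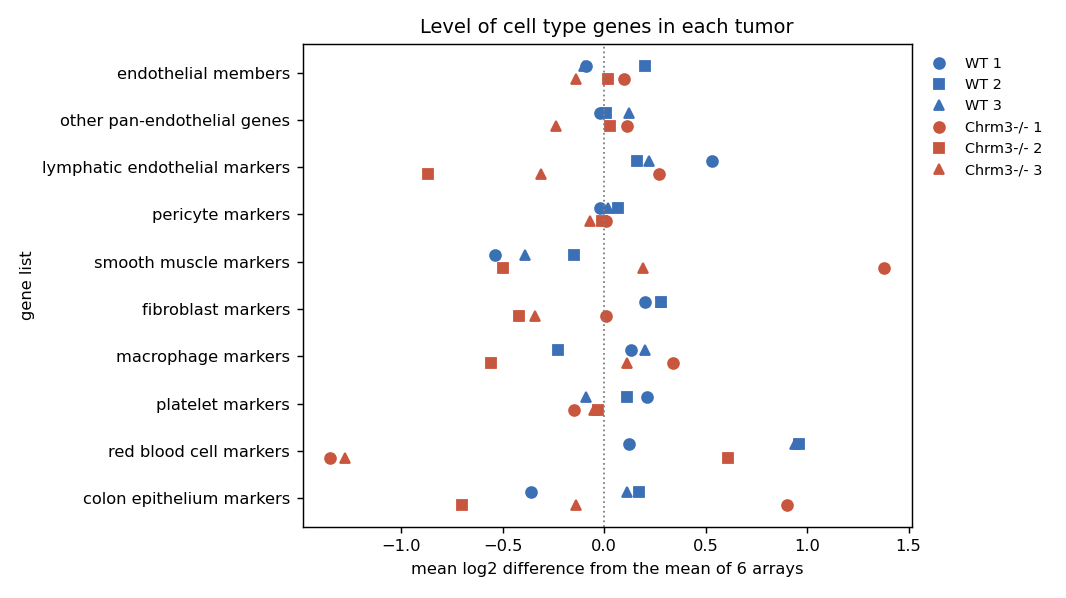
Mean log2 difference from each probe's own mean over the 6 arrays, for the endothelial members and for other gene lists, by array, WT in blue and *Chrm3*-/- in red with a marker shape for each replicate number. The endothelial level stays between -0.14 and 0.20, while smooth muscle markers reach 1.38 in the first *Chrm3*-/- tumor.

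Of the VEGF ligand genes, *Vegfb* alone had groups that did not overlap, a pattern that 5.2% of all tested probes showed with higher values in *Chrm3*-/- tumors. *Vegfb*, a ligand of VEGFR1, read 261, 306 and 309 in WT tumors and 529, 463 and 357 in *Chrm3*-/- tumors. All 3 *Chrm3*-/- values lay above all WT values, but the log2 fold change of 0.53 (SE 0.19, 95% confidence interval 0.08 to 0.99) did not pass (unadjusted p = 0.0282, adjusted p = 0.964 in limma). *Vegfc*, the ligand of lymphatic growth, read 350, 194 and 146 in WT and 308, 100 and 98.2 in *Chrm3*-/- tumors, with overlapping groups (log2 fold change -0.42, SE 0.43). *Vegfd* and *Pgf* were dim, with log2 fold changes of -0.08 and -0.22. Of the 5 ligand genes, 0 passed, 1 had a positive and 4 a negative log2 fold change, and the median was -0.08, or between -0.22 and 0.05 with 1 array left out. Of the 4 receptor and coreceptor genes tested, 0 passed and the median was -0.04, or between -0.14 and 0.03 with 1 array left out. *Flt4*, which counts among them, was near background.

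In the angiopoietin and Tie list, 0 of 6 genes passed, 2 had positive and 4 negative values, and the median was -0.15. It was -0.34 without the second and -0.07 without the third *Chrm3*-/- array, and -0.33 on plain log2 values. *Angptl4*, a secreted lipase inhibitor induced by fasting and hypoxia, read 249, 185 and 150 in WT and 66.7, 104 and 121 in *Chrm3*-/- tumors. Its groups did not overlap, as in the 5.5% of all tested probes that were lower in this way. Its log2 fold change was -0.73 (SE 0.24, unadjusted p = 0.0183, adjusted p = 0.898 in limma). The receptor gene *Tie1* gave -0.06 (SE 0.16), and *Angpt1*, which encodes the ligand that steadies vessels, was near background, between 1.37 and 2.03.

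Genes of sprouting and of the response to low oxygen did not separate the genotypes. Of 11 tip cell and Notch genes, 0 passed, with 6 positive and 5 negative values and a median of 0.00. *Esm1*, a tip cell gene, read 89.0, 92.8 and 107 in WT and 20.5, 250 and 146 in *Chrm3*-/- tumors, with the lowest and highest values in the same tumors as *Vegfa* and *Angpt2*. *Hey1*, a target of Notch, gave 0.70 with an SE of 0.59. Of 13 hypoxia response targets, which include glycolytic enzymes and *Car9*, 0 passed, 9 were positive and 4 negative, and the median was 0.07. *Car9* read 246, 318 and 364 in WT and 702, 229 and 595 in *Chrm3*-/- tumors, and the second *Chrm3*-/- tumor, the highest for *Vegfa*, was its lowest. Of 6 hypoxia sensors and factors, 0 passed, and *Hif1a* gave -0.17 (SE 0.19).

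Of the 19 other endothelial genes tested, 0 passed, 7 were positive and 12 negative, and the median was -0.06. The median was not stable: it was -0.21 without the first and 0.06 without the third *Chrm3*-/- array, and -0.24 over probes with a mean intensity of at least 100. Their groups did not overlap in 4 genes, all with lower values in *Chrm3*-/- tumors, a share to read beside the 5.5% of all tested probes. *Egfl7*, a secreted endothelial protein gene, read 513, 503 and 509 in WT and 405, 354 and 400 in *Chrm3*-/- tumors on its brightest probe (log2 fold change -0.36, SE 0.15, adjusted p = 0.991 in limma). Its other tested probes gave -0.19 and -0.01. *Cd93*, a surface receptor gene of endothelial and myeloid cells, gave -0.32 and -0.43 on its probes, and *Sox7*, a transcription factor gene, gave -0.40 on its brightest probe with the adjusted p at 0.962. The other tested *Sox7* probes gave -0.07 and -0.14, with overlapping groups. *Nos3*, the endothelial nitric oxide synthase gene, gave -0.17 (SE 0.09). *Plvap*, a gene of fenestrated vessels, was highest in the first *Chrm3*-/- tumor, at 1051 beside 576 to 681 in the other five, which is the tumor in which *Pecam1* was highest. The listed endothelial genes *Erg*, *Ecscr*, *S1pr1*, *Calcrl*, *Clec14a* and *Adgrf5* were too dim to be tested, as *Kdr* was.

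Of 9 adhesion and clotting genes of endothelial cells, 0 passed, 2 were positive and 7 negative, and the median was -0.23. It was -0.11 without the second and -0.43 without the third WT array, and -0.50 over probes with a mean intensity of at least 100. *Thbd*, the gene of thrombomodulin, the endothelial brake on clotting, read 318, 278 and 341 in WT tumors and 150, 168 and 167 in *Chrm3*-/- tumors. All 3 *Chrm3*-/- values were below all WT values, as in 5.5% of all tested probes, and close to each other. The means were 312 ± 32.0 in WT and 162 ± 10.3 in *Chrm3*-/- tumors (mean ± SD, 3 mice per genotype). The log2 fold change was -0.77 with an SE of 0.17 (95% confidence interval -1.17 to -0.38), and it did not pass over all probes (unadjusted p = 0.0025, adjusted p = 0.388 in limma). *Plat*, the gene of tissue plasminogen activator, had a log2 fold change of -2.10 with an SE of 1.11, and read 70.0 in the first *Chrm3*-/- tumor beside 1432 to 5232 in the other five.

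The genes whose pattern over the 6 arrays was most like that of the members were found by the root mean square of the differences between centred log2 values. For the endothelial level, the nearest of 19208 probes of other genes were those of *Trpc6* (0.03), *Sec14l2* (0.034), *Ip6k1* (0.036), *Camk2g* (0.04) and *Wdr35* (0.041). For the brighter *Vegfa* probe, the nearest of 19219 were those of *Macc1* (0.06), *Syt12* (0.069), *D930048N14Rik* (0.071), *Zfp553* (0.076) and *Gart* (0.077). Among the members, the dimmer *Vegfa* probe lay nearest to the brighter one, at 0.164, and the dimmer *Angpt2* probe came next, at 0.225. The brighter *Pecam1* probe lay farthest, at 0.769. With 6 arrays and this many probes, a close pattern is a description of these tumors only.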

How the data were processed

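Colon tumors of 3 WT and 3 *Chrm3*-/- mice were profiled on 1 array each. The deposited intensity values were taken as log2(intensity + 50). The paper describes cubic spline normalization and no background subtraction. In the deposited values, all 6 arrays held the same set of numbers, and 46.1% of the probes lay under 2. The sources used here do not say which step gave these traits. In a second deposited table, of signals before normalization, 6 sample columns could not be matched to a sample and were not used here. A probe was tested if its mean log2 value reached the median of all probes, which held for 22641 of 45281. The fit was made in limma 3.58.1 (R 4.3.3; lmFit, then eBayes with a trend) with genotype as the only term, on 4 residual and 2.87 prior degrees of freedom, and was tested on simulated data. P-values were two-sided and adjusted over all tested probes by the method of Benjamini and Hochberg. They set each difference against the spread between arrays of the same genotype, 1 array per mouse, moderated over all tested probes. The number of mice, 6, limits the precision.

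The platform annotation gave 1 symbol to 34885 probes, several to 18 and none to 10378, and 34807 of the former matched the RefSeq gene table of GRCm38.p6. Probe positions within transcripts were not used here. Of 170 listed symbols, 160 had a probe and 151 a tested one, and the brightest tested probe stood for a gene in list counts. The members and lists were chosen with earlier results of these data known. All members and VEGF genes were named, with up to 4 genes of the smallest p per list. Some named genes fall outside that rule and were chosen after their values were seen. They are *Tie1*, *Esm1*, *Plvap*, *Prox1*, *Ccl21a*, *Mmrn1*, *Dcn*, *Fbln1*, *Lum*, *Dpt*, *Car1*, *Cdx2*, *Krt20* and the untested genes of the lists. Alternatives were other offsets, filters and tests, averaged probes, a replicate block and each array left out. Python 3.11.15, pandas 2.3.3, numpy 2.4.6 and matplotlib 3.10.9 were used for tables and plots.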

Additional observations from a re-analysis of the deposited data

How the results depend on the processing

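No member probe passed under any alternative run. The count over all tested probes, 28, was 45 with plain log2 values, 12 without the filter on dim probes and 9 with the methods' t-test, and 4 to 31 with 1 array left out. It was 1 with the replicate number as a replicate block. Same-numbered tumors did not deviate together (r = -0.15, -0.03 and 0.02), beside -0.14 to 0.15 for tumors of different numbers. No pairing by number was seen, but with 3 arrays per genotype this cannot settle whether the numbers pair the samples. With all 19 member probes tested, without the filter, 1 had an unadjusted p under 0.05, the brighter *Kdr* probe. Of its 3 WT values, 2 were under 2, where the order carries no measurement, so this is no result about *Kdr*. The share of all probes with an unadjusted p under 0.05 in that run was not counted. The median of the members stayed between -0.06 and 0.10, and the difference in endothelial level between -0.06 and 0.09, with 1 array left out. With the probes of each gene averaged, *Pecam1* and *Vegfa* both read 0.03. Leaving out 1 array turned the sign of most members. The values ran from -0.42 to 1.13 and -0.06 to 0.63 for the *Angpt2* probes, from -0.28 to 0.15 and -0.02 to 0.10 for *Cdh5*, from -0.43 to 0.17 and -0.12 to 0.21 for *Pecam1*, and from -0.33 to 0.31 and -0.12 to 0.42 for *Vegfa*. They ran from -0.02 to 0.09 for *Esam* and from -0.18 to 0.33 for *Vwf*. *Eng* (-0.45 to -0.22), *Flt1* (-0.17 to -0.07) and *Tek* (0.09 to 0.45) kept their direction. The cause of these changes was not tested beyond the arrays left out. Signal over background limited *Kdr*, whose probes read no higher than 8.84.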

Other observations

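The endogenous inhibitors of angiogenesis listed here are secreted proteins that hold back vessel growth, and only some of them are matrix proteins. Their genes had mostly negative log2 fold changes, and none passed. Of 9 genes tested, 1 was positive and 8 negative, beside 47.6% of all tested probes below 0, with a median log2 fold change of -0.48, and 3 had an unadjusted p under 0.05, beside 4.82% of all tested probes. *Sparc*, a matrix protein gene, read 3615, 3666 and 3378 in WT tumors and 1840, 2989 and 2046 in *Chrm3*-/- tumors on its brightest probe (log2 fold change -0.65, SE 0.20, adjusted p = 0.844 in limma), and its other probes gave -0.87 and -0.38. *Col18a1*, whose product is cut to release endostatin, read 2883, 3137 and 3092 in WT tumors and 695, 2339 and 1592 in *Chrm3*-/- tumors (log2 fold change -1.11, SE 0.40, adjusted p = 0.958 in limma). *Thbs2*, the thrombospondin 2 gene, gave -1.86 (SE 0.61, adjusted p = 0.898 in limma), with overlapping groups. The fibroblast markers, of which 7 of 8 were below 0, gave a median of -0.44, and their part in these values was not tested.

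The 7 lymphatic endothelial markers tested had a median log2 fold change of -0.57, and none passed. All 7, with *Flt4* near background among them, were below 0, beside 47.6% of all tested probes. The tumors did not share this: *Lyve1*, *Reln*, *Ccl21a* and *Mmrn1* all had their highest value of the 6 in the first *Chrm3*-/- tumor, and the mean intensity was higher in *Chrm3*-/- than in WT tumors for *Ccl21a* (1218 beside 894) and *Mmrn1* (82.6 beside 65.1). *Pdpn*, the gene of podoplanin, which lymphatic endothelium and fibroblasts both express, read 1144, 974 and 1025 in WT tumors and 683, 309 and 443 in *Chrm3*-/- tumors. Its groups did not overlap, as in the 5.5% of all tested probes that were lower in this way. Its log2 fold change was -1.11 (SE 0.27, adjusted p = 0.533 in limma). *Lyve1*, which lymphatic vessels share with some macrophages, read 286, 217 and 180 in WT tumors and 387, 51.1 and 129 in *Chrm3*-/- tumors. *Prox1*, the lymphatic fate gene, put the tumors in another order than these genes did. It read 8.01 in the first *Chrm3*-/- tumor beside 455 to 1407 in the other tumors. Its highest value was in the second *Chrm3*-/- tumor, in which *Lyve1*, *Reln*, *Ccl21a* and *Mmrn1* all had their lowest. Which cells gave the *Prox1* signal was not tested.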
